A study of Mus musculus with 12 samples.

Results

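The livers of mice given silver nanoparticles coated with polyvinylpyrrolidone (PVP) were compared with the livers of mice given water. The comparison rests on 8 of the 12 arrays of the series, 4 per group with 1 mouse per array, chosen by the treatment named in the sample titles. The mice of all groups, controls included, were C57BL/6J -Oca2p-un/J animals with the pink-eyed unstable allele of the pigment gene Oca2, aged 3 months. The exposed mice received particles of 20 nm by oral gavage once a day at 4 mg silver per kg for a total of 7 doses, and the controls received water. Livers were taken 24 h after the last dose. Each group held 2 males and 2 females. Control replicates 1 and 3 and PVP replicates 3 and 4 were male, and the others were female. A group of 4 mice given citrate-coated particles of the same size and dose entered the estimate of spread and a comparison of the PVP livers with theirs. Whole liver was measured, so every value is an average over all cells of the organ. The labels name separate mice, and p-values measure only the spread between these mice.

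The liver receives what the gut absorbs through the portal vein. Its hepatocytes make plasma proteins, process lipids and sugars and conjugate foreign compounds, and its Kupffer cells take particles out of the blood. Silver ions bind thiol groups, and glutathione and the metallothioneins are thiol-rich molecules that bind such metals in liver cells. PVP is an uncharged polymer that keeps particles apart by bulk.

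Signals are on a log2 scale, on which a difference of 1 is a doubling, and the highest signal the table holds is 19.93. Of 30063 genes with a probe set of their own, 19985 had a mean signal above 3.93 and were tested. Alb, Apoa1 and Ttr, which define hepatocytes, stood at 19.92 or 19.93 on all 8 arrays, so that changes in them could not be seen. Cpa1 and Prss2 of exocrine pancreas, Vil1 of intestine, Adipoq and Lep of fat and Msln and Wt1 of mesothelium were below the signal needed for testing. Other defining markers of these tissues were above it. Fabp2 and Cdx2 of intestine had mean signals of 12.65 and 4.144 over the 12 arrays. Cela1 of pancreas had 5.724, Upk3b of mesothelium 5.115 and Plin1 of fat 3.936.

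The PVP arrays had lower signal in control exons. The median of the 1324 exon probe sets that the array carries as positive controls was 7.99, 8.79, 8.83 and 8.47 on the PVP arrays in order of replicate, against 8.84 to 9.13 on control arrays and 8.92 to 8.94 with citrate. Every PVP array lay below every control array, with means of 8.52 ± 0.385 and 8.98 ± 0.122 (SD, n = 4 each), and the difference had the smallest p that 4 against 4 allows (exact permutation test, two-sided p = 0.0286). The 5222 intron controls had medians of 4.79 with PVP and 4.78 in controls (exact permutation test, two-sided p = 0.914). Protein-coding genes showed the same slope across signal. With all genes tested ranked by mean signal and cut into 10 bins, the median difference of protein-coding genes was 0.0894 in the lowest bin and -0.233 in the highest. PVP replicate 1 carried most of this slope, with a median deviation from the 8-array mean of 0.176 in the lowest bin and -0.404 in bin 9. PVP replicate 4 followed with -0.136 in bin 10, while PVP replicate 2 stayed near 0 and PVP replicate 3 reached 0.0804. For this reason many gene lists are set beside the median of protein-coding genes in the signal bin of their members, called the matched median. Many are also set beside their median without PVP replicates 1 and 4. Without these livers 10 of the 67 list medians turned from below to above 0 at 2 decimals. These 2 arrays also separated exon from intron controls least well of the 12.

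**Figure D1:**
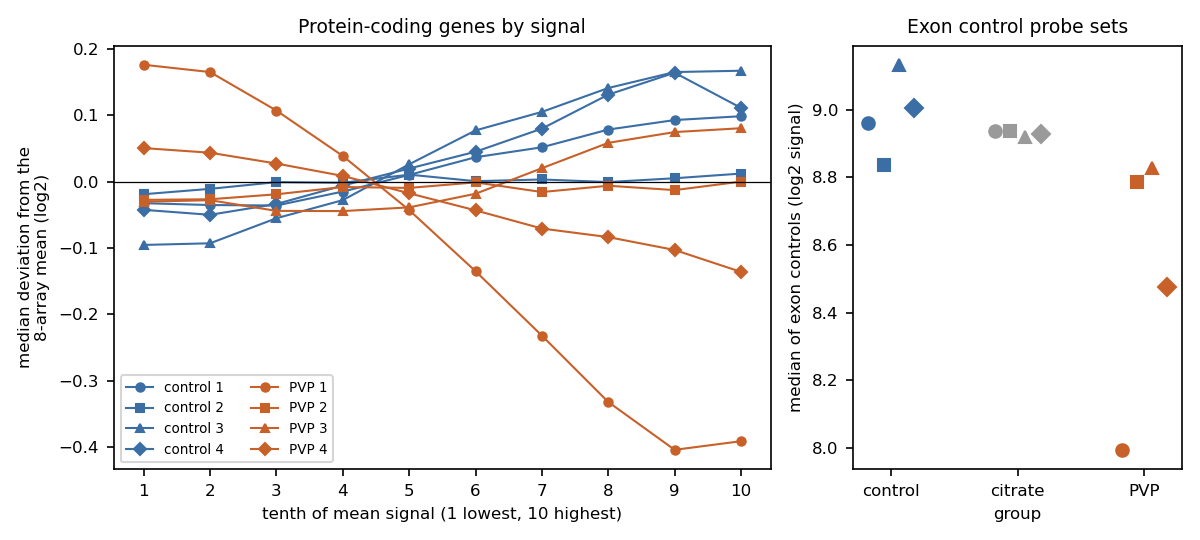
Left, the median deviation (log2) of protein-coding genes from the mean of the 8 arrays in each of 10 bins of mean signal, 1 line per liver. Right, the median log2 signal of the exon control probe sets on each of the 12 arrays. PVP replicate 1 falls to -0.404 in bin 9 and to 7.99 among the exon controls, below all others.

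Across all genes the median difference was -0.00233, with 9842 genes above 0 and 10097 below. At an adjusted p under 0.05 (limma, Benjamini-Hochberg over all genes tested), 3 genes were higher, 0.015% of those tested, and 5 were lower, 0.025%. At an adjusted p under 0.1 the counts were 64 higher and 208 lower, which are 0.32% and 1.04%. At an unadjusted p under 0.05 they were 1609 and 2448, or 8.05% and 12.2%. The lower share of these 4057 calls was 60.3%, and it was 73.9% after quantile normalization, which moved the median of all genes to -0.062. The 4 PVP livers all lay above the 4 control livers in 596 genes, 2.98%, and all below in 983 genes, 4.92%. Only genes past 0.05 are said to have risen or fallen, and the others are given by their values. The 67 gene lists described here held 1211 distinct tested genes, of which 37 were among the 272 at an adjusted p under 0.1.

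The count of 8 depended on which arrays were used and on how the spread was estimated. Without PVP replicates 1 and 4 it was 0, with only PVP replicates 2 and 3 left in that group. With the exon control median of each array as a covariate it was 1, the microRNA gene Mir292b (1.94, adjusted p = 0.0394), which is named after its value was seen. Leaving out 1 array gave 1 to 61 genes at 0.05, with 1 without PVP replicate 1 or 4, 11 without PVP replicate 2 and 61 without PVP replicate 3. With that covariate 1976 genes had an unadjusted p under 0.05, and 48.1% of them were lower, against 4057 genes without it.

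**Figure D2:**
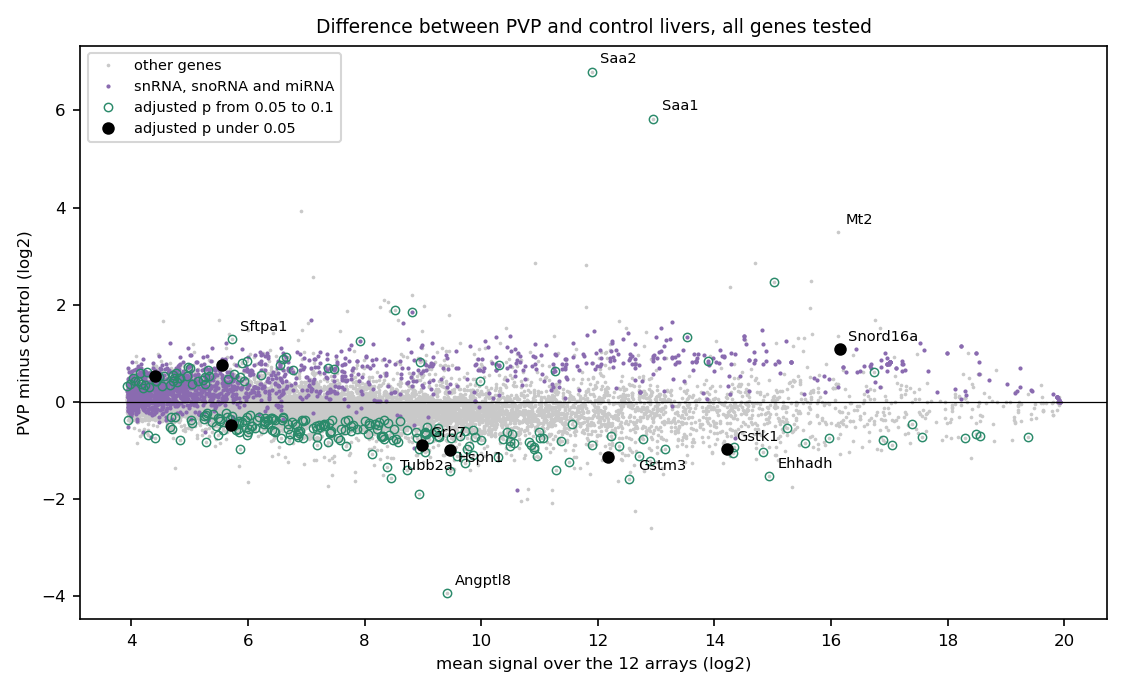
The difference between PVP and control livers (log2) against the mean signal over the 12 arrays (log2) for the 19985 genes tested, with small RNA genes in purple, genes at an adjusted p from 0.05 to 0.1 as open circles and the 8 genes under 0.05 in black. Saa2 is highest at 6.80 and Angptl8 lowest at -3.93, and the small RNA genes lie mostly above 0.

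Genes of cytosolic protein folding by HSP90 were lower in the PVP livers. HSP90 folds kinases and hormone receptors in a cycle with helper proteins, and the transcription factor HSF1 raises many of these genes when proteins unfold. Of 12 tested members of this list, 11 were below 0, with a median of -0.454 against a matched median of -0.214. No member passed 0.05, 4 were lower at an adjusted p under 0.1, and 7 were lower at an unadjusted p under 0.05. In the same 7 all PVP livers lay below all control livers. Over all genes tested, 1.04% were lower at that adjusted p, 12.2% at that unadjusted p and 4.92% without overlap. Bin 9 holds the median signal of this list. Of its 1524 protein-coding genes, 391 were lower at that unadjusted p and 164 were lower without overlap. Hsf1 and Hsp90ab1, the constitutive HSP90, had no probe set of their own and were not analysed here.

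Hsp90aa1, the stress-inducible HSP90, had signals of 13.18, 13.09, 13.30 and 13.65 in control replicates 1 to 4 and 11.75, 12.35, 12.34 and 11.94 in PVP replicates 1 to 4. Stip1, which hands client proteins from HSP70 to HSP90, had 11.95, 11.53, 11.62 and 12.27 in controls and 9.90, 10.69, 10.80 and 10.42 with PVP. In both genes the lowest liver was PVP replicate 1 and the groups were clear of each other. The differences were -1.21 (SE 0.20, limma adjusted p = 0.0577) for Hsp90aa1 and -1.39 (SE 0.23, adjusted p = 0.0577) for Stip1. Without PVP replicates 1 and 4 they were -0.96 and -1.10. Ahsa1, which speeds the ATPase of HSP90, had 9.34, 9.36, 9.45 and 9.41 in controls and 8.47, 8.80, 8.88 and 8.96 with PVP. Fkbp4, the cochaperone of steroid receptors, had 10.84, 10.68, 10.63 and 11.19 in controls and 9.94, 9.99, 10.31 and 9.86 with PVP. Again no PVP liver reached the control range, with differences of -0.61 (adjusted p = 0.0675) and -0.81 (adjusted p = 0.0875).

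The other members with groups clear of each other were Ppid at -0.52, Hspbp1 at -0.39 and Chordc1 at -1.04 (adjusted p of 0.121, 0.172 and 0.149). Ppid is a cyclophilin of the HSP90 complex and Hspbp1 a nucleotide exchange factor of HSP70. Chordc1 stood lowest in PVP replicate 1 at 8.86, against 9.91 to 10.44 in the other PVP livers and 10.57 to 11.39 in controls. The single member above 0 was Fkbp5, a cochaperone that glucocorticoids induce, at 0.27 (adjusted p = 0.514). Leaving out any single PVP or control liver kept the median of the list between -0.50 and -0.42, and without PVP replicates 1 and 4 it was -0.38.

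Among the HSP70, HSP40, HSP110 and small heat shock proteins 2 HSP110 members were lower at an adjusted p under 0.1. Of 23 tested, 18 were below 0 with a median of -0.122, close to the matched median of -0.145, and -0.05 without PVP replicates 1 and 4. Hsph1, an HSP110 that resets HSP70 and helps dissolve aggregates, ran from 9.99 to 10.28 in controls and had 8.06, 8.67, 9.25 and 8.88 with PVP. Its relative Hspa4l had 7.67, 7.94, 7.86 and 8.66 in controls and 6.94, 7.65, 7.18 and 6.71 with PVP. No PVP liver reached the controls in either gene, with differences of -1.41 (SE 0.21, adjusted p = 0.0566) and -0.91 (SE 0.19, adjusted p = 0.0875). The related Hspa4 had -0.49 (adjusted p = 0.168), and its groups overlapped. The inducible HSP70 Hspa1a was near the floor of the array, with signals of 4.25 to 4.76 in controls and 4.10 to 4.55 with PVP. Dnajb1, the main HSP40 of the heat shock response, had -0.15, and Bag3 had -0.16 (adjusted p of 0.579 and 0.509). The constitutive Hspa8 stood at the ceiling of 19.93 on every array.

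The promoters of Hsph1, Fkbp4 and Stip1 are shown because HSF1 binds inverted repeats of GAA, and these 3 genes were among the lower chaperones. The windows are the 250 bases before the start of each gene in the RefSeq table of GRCm38.p6, 5′ to 3′ on the strand of the gene. A paired unit was searched as GAANNTTC or TTCNNGAA on both strands, and capitals mark each match. The Hsph1 window lies at chr5:149636337-149636586 on the minus strand, that of Fkbp4 at chr6:128438657-128438906 on the minus strand, and that of Stip1 at chr19:7040027-7040276 on the minus strand.
Hsph1: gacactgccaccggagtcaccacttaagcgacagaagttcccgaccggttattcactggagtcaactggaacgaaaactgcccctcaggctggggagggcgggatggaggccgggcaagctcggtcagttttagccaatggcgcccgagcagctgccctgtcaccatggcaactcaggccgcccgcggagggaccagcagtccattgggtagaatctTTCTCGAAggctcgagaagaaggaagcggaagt
Fkbp4: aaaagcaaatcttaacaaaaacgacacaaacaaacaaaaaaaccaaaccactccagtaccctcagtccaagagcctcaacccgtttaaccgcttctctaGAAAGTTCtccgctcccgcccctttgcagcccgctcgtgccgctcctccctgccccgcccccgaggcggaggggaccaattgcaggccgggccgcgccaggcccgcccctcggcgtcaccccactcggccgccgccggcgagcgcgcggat
Stip1: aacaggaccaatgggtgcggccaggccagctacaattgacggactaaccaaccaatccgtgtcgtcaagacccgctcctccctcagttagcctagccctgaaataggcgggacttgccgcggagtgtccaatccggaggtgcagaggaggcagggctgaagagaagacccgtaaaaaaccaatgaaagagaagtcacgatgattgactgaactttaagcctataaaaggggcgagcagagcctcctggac

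Hsph1 had 1 match starting 33 bases before the start used for this window, and the table lists another start of Hsph1 from which the same match lies 54 bases upstream. Fkbp4 had 1 starting 151 bases before its start, and the Stip1 window held neither form. Of all 32851 promoter windows of the table, each 300 bases long, 15.1% held at least 1 such match, and of those of the protein-coding genes tested, 12.4% did. The windows of the HSP90 list held a match in 3 of 10 and those of the HSP70, HSP40 and HSP110 list in 11 of 27. Among the windows of all genes lower at an adjusted p under 0.1 the share was 12.3%, 25 of 204. A match is a description of these letters, and binding was not measured.

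Other folding machines held no member at an adjusted p under 0.1. The TRiC chaperonin with prefoldin, which folds actin and tubulin, had 12 of 14 members below 0 and a median of -0.217 against a matched -0.214, and -0.16 without PVP replicates 1 and 4. In Cct2, Cct3, Cct5 and Pfdn5 the PVP livers lay below all controls, with differences of -0.56, -0.54, -0.32 and -0.30 (adjusted p of 0.148, 0.139, 0.207 and 0.175). Mitochondrial chaperones and proteases had all 12 members below 0, at a median of -0.266 against a matched -0.214, and -0.15 without PVP replicates 1 and 4. Chaperones of the endoplasmic reticulum had a median of -0.179 against a matched -0.233, which turned to 0.05 with 6 of 20 members below 0 without PVP replicates 1 and 4 and was -0.42 without PVP replicate 2. Syvn1, a ubiquitin ligase of misfolded proteins, was the 1 of 20 members at an unadjusted p under 0.05, at -0.71 (adjusted p = 0.162). Hspa5, the BiP chaperone, overlapped between the groups at -0.59 (adjusted p = 0.287). Sensors and effectors of the unfolded protein response had a median of 0.0754 with 11 of 16 above 0, against a matched -0.0656.

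**Figure D3:**
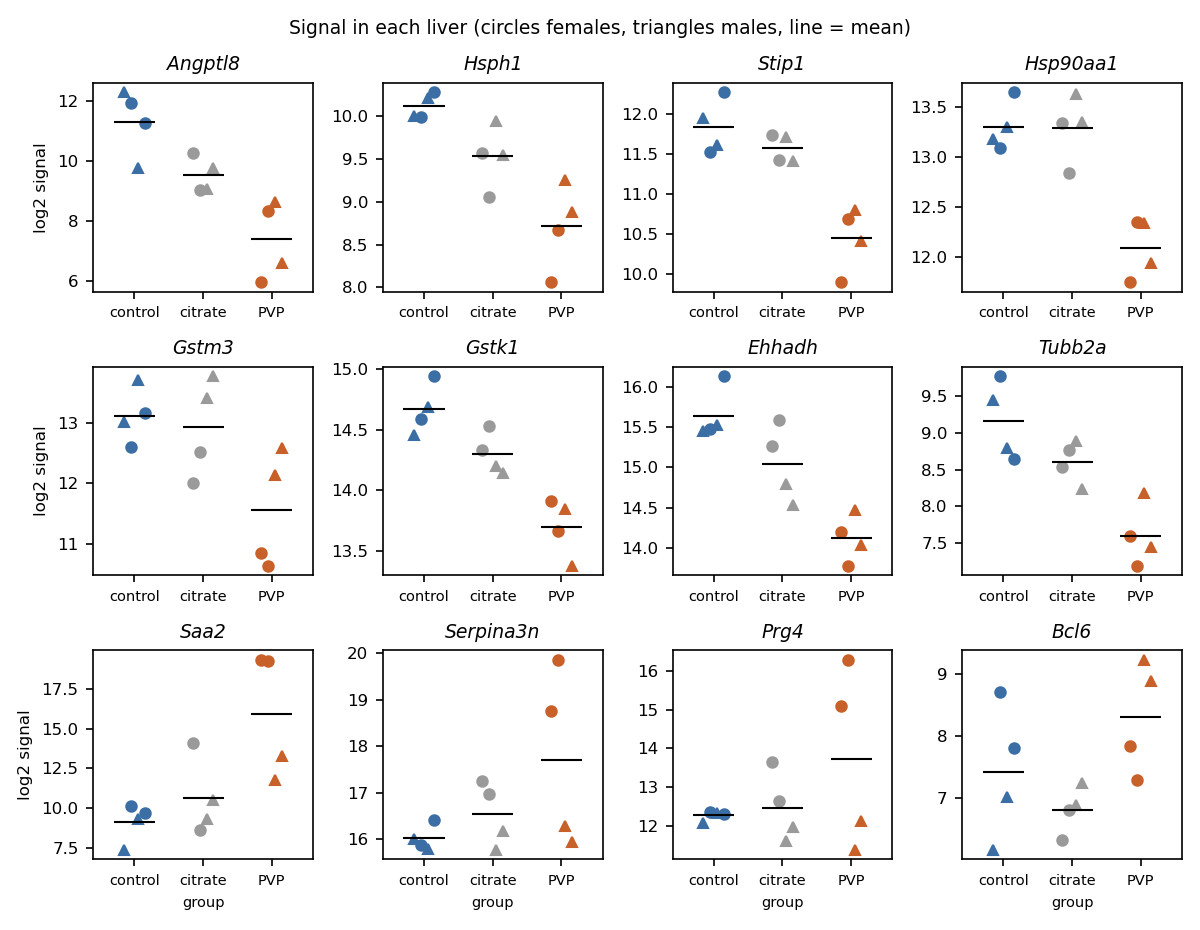
Log2 signal of 12 genes in each liver of the control, citrate and PVP groups, with females as circles, males as triangles and the group mean as a line. Hsph1, Stip1 and Hsp90aa1 lie lower in all 4 PVP livers than in any control, and Serpina3n and Prg4 are highest in the 2 PVP females.

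Glutathione transferases were lower in PVP livers as a family. These enzymes join glutathione to reactive compounds, and the mu class forms a cluster of neighbouring genes on mouse chromosome 3 whose sequences are close enough that probes may cross between them. All 7 mu members were below 0, at a median of -0.807 against a matched -0.233. At an adjusted p under 0.1 there were 5, namely Gstm2, Gstm3, Gstm4, Gstm6 and Gstm7, and in the same 5 no PVP liver reached a control. Over all genes tested, 1.04% were lower at that threshold and 4.92% were lower without overlap. Without PVP replicates 1 and 4 the median was -0.79.

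Gstm3 had 13.02, 12.60, 13.71 and 13.17 in control replicates 1 to 4 and 10.85, 10.63, 12.14 and 12.59 in PVP replicates 1 to 4. Gstm6 had 7.75, 7.36, 7.86 and 7.29 in controls and 6.36, 6.08, 7.23 and 7.03 with PVP. In both genes the 2 PVP females were the lowest livers and the PVP males came close to the control range, whose lower end was a control female. The PVP males lay below the control males, which had 13.02 and 13.71 for Gstm3 and 7.75 and 7.86 for Gstm6. The differences were -1.58 (SE 0.27, adjusted p = 0.0629) and -0.89 (SE 0.13, adjusted p = 0.0566). Gstm4, Gstm7 and Gstm2 had differences of -0.84, -0.81 and -0.73 (adjusted p of 0.0577, 0.0692 and 0.0707). Gstm1, the most abundant, had 17.20 and 16.80 in the PVP females and 18.14 in both PVP males, against 18.14 to 18.34 in controls. It did not pass (-0.69, adjusted p = 0.138), nor did Gstm5 (-0.08, adjusted p = 0.705), whose signal was low. The median of the mu list was -1.11 in females and -0.562 in males, and 3 of its 7 members had an unadjusted p under 0.05 for the difference between the sexes, against 3.62% of all genes. Of the promoter windows of this list 2 of 12 held the core of the antioxidant response element that NRF2 binds, TGACNNNGC, against 12.4% of all windows.

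Gstk1, a transferase of mitochondria and peroxisomes, fell by 0.97 on the log2 scale (SE 0.13, adjusted p = 0.046). Its signals were 14.46, 14.59, 14.69 and 14.94 in controls and 13.91, 13.67, 13.85 and 13.38 with PVP, and the difference was alike in size in both sexes (-0.97 in females, -0.96 in males). Gstk1 passed the threshold in 2 of 12 fits that left out 1 array and in 4 of 16 other settings. All 12 tested transferases outside the mu class were below 0, with a median of -0.576 against a matched -0.233, and -0.51 without PVP replicates 1 and 4. In 5 of them the PVP livers lay below all controls, against 4.92% of all genes tested. Gsta2 ran from 11.06 to 12.23 in controls and from 7.46 to 10.63 with PVP (-2.04, SE 0.58, adjusted p = 0.138). Gsta4, which clears the lipid aldehyde hydroxynonenal, had -1.14 and Gstt1 -1.35 (adjusted p of 0.119 and 0.185). Gstp1 differed by sex in all groups, with 19.91 and 19.92 in the PVP males and 13.32 and 13.91 in the PVP females, and its PVP difference was -0.20 (adjusted p = 0.756). Other genes of the NRF2 axis were close to the matched median of -0.174, with a list median of -0.217 and 19 of 22 below 0, and at -0.12 without PVP replicates 1 and 4. Nqo1, a quinone reductase, had -0.61, and Ephx1, an epoxide hydrolase, had -1.18 (adjusted p of 0.152 and 0.158).

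Genes of lipid handling held the largest negative difference. Angptl8, a protein that hepatocytes release after feeding and that limits lipoprotein lipase, had signals of 12.29, 11.95, 9.79 and 11.26 in controls and 5.97, 8.35, 8.64 and 6.61 with PVP. The lowest control was above the highest PVP liver, but both groups spread over more than 2 log2 units. The difference was -3.93 (SE 0.69, adjusted p = 0.0635), and -2.83 without PVP replicates 1 and 4. The citrate livers averaged 9.53, between the other groups.

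The fatty acid and triglyceride synthesis list had 21 of 23 members below 0 and a median of -0.504 against a matched -0.233. It was -0.51 without PVP replicates 1 and 4. Elovl5, which lengthens polyunsaturated fatty acids, had 14.75, 15.72, 15.35 and 15.21 in controls and 14.14, 14.77, 13.70 and 14.28 with PVP. Agpat2, which makes phosphatidic acid, had 10.89, 10.49, 10.78 and 10.83 in controls and 9.67, 10.39, 9.94 and 9.89 with PVP. PVP replicate 2 overlapped the controls narrowly in Elovl5 and lay just under them in Agpat2. The differences were -1.03 (SE 0.20, adjusted p = 0.073) and -0.77 (SE 0.16, adjusted p = 0.0875). Fasn and Elovl6, which build palmitate and lengthen it, were lower in every PVP liver than in any control at -1.35 and -1.62, but with wide errors (adjusted p of 0.185 and 0.172). Fads1 and Fads2, the desaturases that work with Elovl5, had -0.57 and -0.65 (adjusted p of 0.158 and 0.206). Lpin1 had 0.26 (adjusted p = 0.882) and was one of 2 members above 0.

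Targets of PPAR-alpha, the receptor that drives fatty acid burning, had 33 of 34 members below 0 and a median of -0.551 against a matched -0.233. This median was -0.15 without PVP replicates 1 and 4, and the median deviations of the members were -0.686 and -0.512 in those livers and 0.07 and 0.0896 in PVP replicates 2 and 3. Control replicate 4 stood at 0.891 and the other controls at -0.0897 to 0.196. Ehhadh, the bifunctional enzyme of peroxisomal oxidation, did not follow that split. It had 15.45, 15.47, 15.52 and 16.13 in controls and 14.20, 13.78, 14.47 and 14.04 with PVP. All 4 PVP livers were lower by a wide margin (-1.52, SE 0.23, adjusted p = 0.0566), and the difference was -1.52 also without PVP replicates 1 and 4. Plin2, which coats lipid droplets, had 13.50, 13.42, 13.86 and 14.14 in controls and ran from 12.44 to 13.06 with PVP (-0.96, SE 0.21, adjusted p = 0.0952). Cpt2 and Acot1 had -0.99 and -1.51 (adjusted p of 0.126 and 0.158). Cholesterol synthesis and uptake had 10 of 19 above 0 and a median of 0.113, which was 0.42 with 4 of 19 below 0 without PVP replicates 1 and 4 and -0.13 with 16 of 19 below 0 without PVP replicate 2. Its median deviation was 1.35 in PVP replicate 2 and -0.469 to -0.197 in the other PVP livers.

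Energy metabolism had negative medians, several of them close to those of protein-coding genes of the same signal. Complex I of the respiratory chain had 27 of 33 members below 0 at a median of -0.183, against a matched -0.214, and 15 at an unadjusted p under 0.05. Ndufa3 had -0.69 (adjusted p = 0.0984). All 14 members of complexes II and III were below 0, at a median of -0.368 (matched -0.223). Of these 11 had an unadjusted p under 0.05, among them Uqcrc1 and Uqcrc2 at -0.61 and -0.66 (adjusted p of 0.117 and 0.119). Over all genes tested, 12.2% were lower at that unadjusted p. In bin 9, which holds the median signal of complex I and of complexes II and III, 391 of 1524 protein-coding genes were. Complexes IV and V had -0.267 and -0.273 against a matched -0.214, and both had -0.21 without PVP replicates 1 and 4. In the mitochondrial ribosome 61 of 72 were below 0 at -0.169, against a matched -0.145, and at -0.13 without PVP replicates 1 and 4. Of protein-coding genes in bin 7, which holds the median signal of this list, 79.9% were below 0. Mrpl50, a protein of the large subunit of this ribosome, ran from 11.15 to 11.50 in controls and from 10.31 to 10.72 with PVP (-0.75, SE 0.13, adjusted p = 0.0659). The tricarboxylic acid cycle had a median of -0.399 against a matched -0.223, with Idh3g at -0.70 and Mdh2 at -0.54 (adjusted p of 0.114 and 0.119). Without PVP replicates 1 and 4 it was -0.23, and that of complexes II and III was -0.29.

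Glycolysis and glycogen had a median of -0.523 against a matched -0.233, of which PVP replicate 1 held a deviation of -1.07 while PVP replicates 2 to 4 lay between -0.197 and 0.088. Without PVP replicates 1 and 4 the median was -0.15. Pklr, the pyruvate kinase of liver, had 8.23 in PVP replicate 1 and 9.68 to 10.80 in the other PVP livers, against 10.82 to 12.04 in controls (-1.78, adjusted p = 0.177). Pgam1 had -0.83 (adjusted p = 0.116), and its groups did not overlap. Cytochromes P450 of families 1 to 3 had 22 of 29 below 0 and a median of -0.397 against a matched -0.233, which was -0.00 without PVP replicates 1 and 4. The exceptions in direction included Cyp3a13 at 1.15 (adjusted p = 0.126). Cytosolic ribosomal proteins had 20 of 29 above 0 and a median of 0.0339, against a matched -0.214, and 0.11 without PVP replicates 1 and 4. Rps3a1 and Rps20 were higher in all PVP livers than in any control, at 0.38 and 0.31 (adjusted p of 0.152 and 0.199). Only 29 of 66 listed ribosomal proteins had a usable probe set. The proteasome core and cap had -0.102 and -0.168 against a matched -0.214, and 0.00 and 0.01 without PVP replicates 1 and 4.

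**Figure D4:**
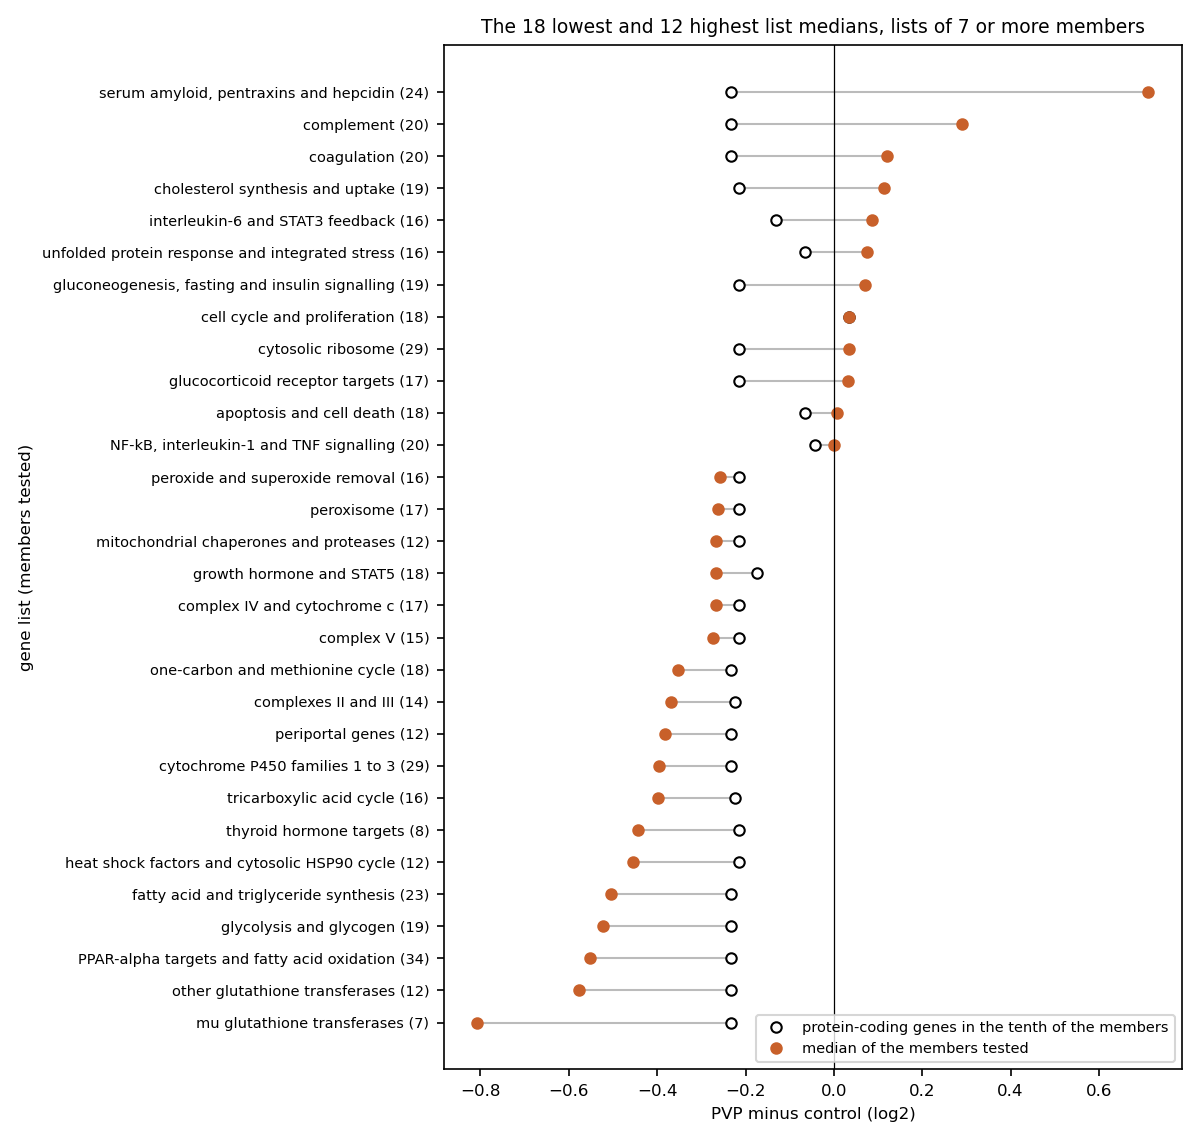
The median difference between PVP and control livers (log2) of the members of each gene list (filled), with the median of protein-coding genes in the signal bin of its members (open), for the 18 lowest and 12 highest lists of 7 or more tested members. Among these the mu glutathione transferases are lowest at -0.807 and the serum amyloid list is highest at 0.712.

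Grb7 and Camsap3 were the protein-coding genes with the smallest p. Both belong to the list of signalling adaptors and the cytoskeleton, whose members were chosen with earlier results of these data known. Grb7, an adaptor of receptor tyrosine kinases and focal adhesions, had 9.75, 9.50, 9.86 and 9.36 in controls and 8.56, 8.72, 8.69 and 8.91 with PVP. Camsap3, which caps microtubule minus ends, had 6.19, 5.86, 6.11 and 5.94 in controls and 5.37, 5.49, 5.71 and 5.61 with PVP. The groups of both were clear of each other. Grb7 fell by 0.89 on the log2 scale (SE 0.10, adjusted p = 0.0178), and the drop in Camsap3 had a fitted value of -0.48 (SE 0.06, adjusted p = 0.0341). Each passed the threshold in 4 of 12 fits that left out 1 array. Against citrate they differed by 0.11 and -0.01. Their relatives Grb10, Grb14, Camsap1 and Camsap2 had -0.15, -0.09, -0.06 and -0.04, each with an adjusted p of 0.272 or more. Bcar3 and Tns2, adaptors of adhesion signalling, had -0.55 and -0.73 (adjusted p of 0.0906 and 0.0809). Bcar3 stood 0.46 above the citrate livers. Lurap1l was the one member higher at this threshold, at 0.82 (adjusted p = 0.0781).

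All 7 tubulins of the list, the subunits of microtubules, were below 0. Tubb2a had 9.44, 9.77, 8.79 and 8.64 in controls and 7.59, 7.19, 8.18 and 7.45 with PVP. Tubb5 had 9.54, 9.12, 9.33 and 9.33 in controls and 8.39, 8.75, 8.82 and 8.83 with PVP. Neither gene overlapped between the groups, with differences of -1.56 (SE 0.29, adjusted p = 0.0675) and -0.63 (SE 0.11, adjusted p = 0.0583). Without PVP replicates 1 and 4 these were -1.47 and -0.55. Tuba1a, Tuba1c, Tuba4a and Tubb4b had -1.09, -0.67, -1.23 and -0.75 (adjusted p of 0.11, 0.169, 0.148 and 0.116). The keratins of hepatocytes, Krt8 and Krt18, had 0.49 and 0.47 (adjusted p of 0.287 and 0.415), and Actb had -0.16. Over the 28 tested members of the list 24 were below 0, the median was -0.225 against a matched -0.174, and 6 were lower and 1 higher at an adjusted p under 0.1. Over all genes tested, 1.04% were lower and 0.32% higher at that threshold. The members were chosen with earlier results known, so these counts only describe the list.

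Several liver genes outside these groups lay lower in all 4 PVP livers. Hjv, the BMP coreceptor that drives hepcidin, had 10.45, 10.85, 10.94 and 10.89 in controls and 10.04, 9.83, 9.13 and 9.60 with PVP (-1.13, SE 0.17, adjusted p = 0.0566). Its target Hamp was at the ceiling on every array, and Tfr2, another iron sensor, ran from 11.66 to 12.06 in controls and from 12.18 to 13.03 with PVP (0.56, adjusted p = 0.177). Ftl1, a ferritin light chain, had -0.44 (adjusted p = 0.119). The iron list as a whole had a median of -0.136 against a matched -0.214, and -0.08 without PVP replicates 1 and 4. Suox, the mitochondrial sulfite oxidase, had 13.23, 13.40, 13.21 and 12.86 in controls and 12.49, 11.75, 12.40 and 11.62 with PVP. Hykk, a kinase of hydroxylysine breakdown, had 9.89, 10.09, 10.91 and 10.44 in controls and 8.82, 9.24, 9.07 and 9.21 with PVP. Both groups were separated, with differences of -1.11 and -1.25 (adjusted p of 0.0718 and 0.0577). Gata4, a factor of liver development, was low in signal but narrow in spread, from 5.36 to 5.47 in controls and 5.15 to 5.21 with PVP (-0.27, SE 0.05, adjusted p = 0.0623). Irak2, a kinase of interleukin-1 signalling, and Fgfr3, a receptor for fibroblast growth factors, had -0.53 and -0.42 (adjusted p of 0.0675 and 0.0692).

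Small RNA genes, which the array measures on probe sets for genes too short for many probes, had positive median differences as classes. They were not higher on every PVP array. Of 730 tested small nuclear RNA genes 678 were above 0, with a median of 0.572, and 252 were higher and 0 lower at an unadjusted p under 0.05. Small nucleolar RNAs had a median of 0.231, with 138 of 669 higher and 2 lower, and microRNA genes 0.201, with 69 of 367 higher and 6 lower. Over all genes tested, 8.05% were higher and 12.2% lower at that unadjusted p. Long noncoding RNAs had 0.101, and protein-coding genes had -0.0503. The array medians of these classes did not differ beyond the spread of the mice over all members of a class, with small nucleolar RNAs at 4.46 ± 0.206 with PVP and 4.25 ± 0.0684 in controls (SD, n = 4 each, exact permutation test, two-sided p = 0.114). PVP replicates 1 and 4 had the highest class medians for small nucleolar RNAs, small nuclear RNAs and microRNAs among the 12 arrays. PVP replicate 2 had 4.20, 5.09 and 4.16 in that order, within the control ranges of 4.19 to 4.32, 4.73 to 5.38 and 4.06 to 4.21. PVP replicates 1 and 4 also had the lowest exon control medians in the PVP group. The part of that signal slope in the small RNA results was not tested for the classes.

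Snord16a, a box C/D small nucleolar RNA that guides methylation of ribosomal RNA, rose by 1.09 (SE 0.09, adjusted p = 0.0049). Its signals were 16.05, 15.43, 15.94 and 15.32 in controls and 16.43, 16.32, 17.31 and 17.03 with PVP, where males were higher than females in both groups and PVP replicates 3 and 4 were the highest. The difference was 1.00 in females and 1.18 in males, and 1.14 without PVP replicates 1 and 4. It was also 0.79 above citrate. Snord16a was past the threshold in 12 of 12 fits that left out 1 array, with adjusted p-values of 0.00561 to 0.042, and was not past it with the exon control median as a covariate, where the difference was 1.08 (adjusted p = 0.131), nor without PVP replicates 1 and 4 (adjusted p = 0.126). The call was also lost with no sex term, with PVP and control arrays only, with 6 means of group by sex, with quantile normalization and with the replicate block, and it held in 8 of 15 settings other than leaving out 1 array. The ribosomal protein gene Rpl4, its host, had -0.20 (adjusted p = 0.401).

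Of the 10 small nucleolar RNA genes at an adjusted p under 0.1, all higher, Snord49a had 13.18, 13.46, 12.79 and 12.57 in controls and 14.51, 14.04, 14.24 and 14.53 with PVP (1.33, SE 0.23, adjusted p = 0.0583). Its neighbour Snord49b had 0.80 (adjusted p = 0.114), and in both all PVP livers were above all controls. Rmrp, the RNA of the enzyme that trims ribosomal RNA, had 16.35, 16.73, 16.29 and 16.26 in controls and 16.88, 17.14, 17.09 and 16.98 with PVP (0.62, SE 0.11, adjusted p = 0.0657). Snord55 had 0.22 (adjusted p = 0.58), close to the class median of 0.231, and 69 of the 669 tested members of the class were below 0. At an adjusted p under 0.1, 0.32% of all genes tested were higher. Of the 367 microRNA genes tested 3 were higher at an adjusted p under 0.1, against 0.32% of all genes tested. The mature sequences of those in the RefSeq table of GRCm38.p6 are shown with the seed, bases 2 to 8, in capitals. They are given to show that they share no seed. Mir5123 lies at chr4:40850057-40850080 on the minus strand and Mir6380 at chr3:137783536-137783559 on the minus strand.
Mir5123: uGUAGAUCcauaugccauggugug
Mir6380: uGUAAGUGcuuuuaacugcugagc

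Mir5123 had 7.28, 8.04, 7.93 and 8.60 in controls and 10.45, 10.61, 9.77 and 8.44 with PVP (1.86, SE 0.37, adjusted p = 0.0788). PVP replicate 4 lay within the control range and the other PVP livers above it. Mir6380 was near the floor, with 4.18 to 4.74 in controls and 4.86 to 5.04 with PVP (0.44, adjusted p = 0.0984). Mir297c had 6.30, 6.44, 6.25 and 5.90 in controls and 7.22, 7.37, 7.11 and 6.86 with PVP (0.92, SE 0.16, adjusted p = 0.0635). An array probe set reads the gene or its precursor as well as the mature form, and these were not told apart.

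Other genes that were higher in every PVP liver were mostly of low signal. Sftpa1, a surfactant protein that binds microbes, had 4.95, 5.61, 5.41 and 4.97 in controls and 6.09, 6.06, 7.26 and 6.69 with PVP (1.29, SE 0.23, adjusted p = 0.0645). Bud13, a splicing factor, had 5.39, 5.64, 5.64 and 5.67 in controls and 6.00, 6.22, 6.76 and 6.60 with PVP (0.81, SE 0.13, adjusted p = 0.0577). In both the PVP males stood above the PVP females. C9orf72, a regulator of autophagy, ran from 6.27 to 6.59 in controls and from 6.92 to 7.20 with PVP (0.65, SE 0.10, adjusted p = 0.0577), and Aopep, an aminopeptidase, from 5.66 to 6.19 and from 6.32 to 6.64 (0.56, adjusted p = 0.0675). The antibody segment Ighv10-1 and the odorant receptor Olfr701 had 0.88 and 0.51 (adjusted p of 0.0967 and 0.0878).

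The remaining genes past 0.05 were a long noncoding RNA and 3 pseudogenes. Gm20300, a long noncoding RNA, had 9.85, 9.99, 10.10 and 9.89 in controls and 8.93, 9.06, 8.99 and 8.93 with PVP, and fell by 0.98 (SE 0.10, adjusted p = 0.0178). Anp32-ps had 12.75, 12.36, 12.75 and 12.74 in controls and 11.28, 11.62, 11.51 and 11.66 with PVP, and fell by 1.13 (SE 0.14, adjusted p = 0.0341). Its functional relatives Anp32a, Anp32b and Anp32e had -0.14, 0.35 and 0.06, and signals of near copies cannot be told apart on an array. Gm4910 had 5.16, 4.77, 5.37 and 4.89 in controls and 5.81, 5.58, 5.90 and 5.96 with PVP, and rose by 0.77 (SE 0.10, adjusted p = 0.046), with 0.03 between PVP and citrate. Gm20871 is annotated on the Y chromosome, yet the females had signals of 3.97 and 3.66 in controls and 4.34 and 4.43 with PVP beside 4.57, 4.47, 4.99 and 5.06 in the males. It rose by 0.54 (SE 0.07, adjusted p = 0.046) in a fit that allows for sex, while the raw values of the groups overlapped. In fits that left out 1 array, Gm20300 passed in 5 of 12, Anp32-ps in 4, Gm20871 in 2 and Gm4910 in 1.

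The lists of serum amyloids and of complement had positive medians with PVP, with a wide spread between mice. In the list of serum amyloids, pentraxins, lipocalin and hepcidin 18 of 24 members were above 0 and 1 below, and 5 were at the ceiling on all 8 arrays. The median was 0.712 against a matched -0.233, and 2 members were higher at an adjusted p under 0.1, against 0.32% of all genes tested. The median deviation of the members was 0.599 and 1.25 in the PVP females and -0.275 and -0.037 in the PVP males. In controls it ran from -0.562 to -0.186, so PVP replicate 3 lay within the control range. Saa2, an amyloid that rises in plasma in acute inflammation, had 7.38, 10.13, 9.31 and 9.70 in controls and 19.34, 19.28, 11.80 and 13.31 with PVP. The PVP females were near the ceiling and the PVP males between them and the controls, and no PVP liver overlapped the controls. The difference was 6.80 (SE 1.34, adjusted p = 0.0757), and Saa1, a near copy, had 5.83 (SE 1.23, adjusted p = 0.0877). Apcs, the murine serum amyloid P component, had 14.48 and 16.62 in the PVP females and 10.52 and 12.07 in the males, against 10.07 to 11.36 in controls. Lcn2, which withholds iron from bacteria, had 11.13 and 13.60 in the PVP females and 5.99 and 5.67 in the males, against 4.44 to 6.54 in controls. These 2 did not pass 0.1 (adjusted p of 0.147 and 0.128). Crp had 0.25 (adjusted p = 0.49). Without PVP replicate 2 the median of the list was 0.42.

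Complement genes had 17 of 20 members above 0 and a median of 0.29 against a matched -0.233, which was -0.04 without PVP replicate 2 and 0.57 without PVP replicates 1 and 4. Their median deviation was 0.685 in PVP replicate 2 and -0.0131 to 0.137 in the other PVP livers, against -0.385 to 0.119 in controls. The median difference was 0.53 in females and 0.0771 in males. C4b and Hc, components C4 and C5, were higher in every PVP liver than in any control, at 1.35 and 0.98 (adjusted p of 0.126 and 0.117). Coagulation factors had 0.12, and 0.19 without PVP replicates 1 and 4. Proteins whose synthesis falls in inflammation were largely at the ceiling, and Serpina6, which carries corticosteroids in blood, had -0.75 (adjusted p = 0.0876). Chemokines and interferon-induced genes had medians of -0.0832 and -0.00296, and -0.13 and 0.18 without PVP replicates 1 and 4. Cxcl1, a neutrophil attractant, ran from 4.97 to 6.55 in controls and from 5.89 to 10.97 with PVP (2.57, adjusted p = 0.185), and Mx2, an antiviral GTPase, had 0.44 (adjusted p = 0.0875).

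Markers of other liver cells were set beside the inflammatory genes. In whole liver fewer cells of a type and less RNA per cell cannot be told apart. All 13 Kupffer cell markers were above 0 at a median of 0.395, and their summed level ran from 11.9 to 13.1 in controls and from 12.3 to 14.8 with PVP (exact permutation test, two-sided p = 0.257). All 10 neutrophil markers were above 0 at 0.396, with summed levels of 7.92 to 10.2 and 9.56 to 12.7 (exact permutation test, two-sided p = 0.171). S100a8, which neutrophils carry in bulk, had PVP values of 8.64, 11.63, 8.76 and 8.08 and ran from 4.76 to 8.94 in controls. PVP replicate 2 was the highest liver for both cell types. The median deviation of Kupffer markers was 1.56 in that liver and -0.0185, -0.394 and -0.204 in PVP replicates 1, 3 and 4, all below the 0.435 of control replicate 4, and the median difference was 0.759 in females and -0.0923 in males. That of neutrophil markers was 0.82 in PVP replicate 2 and 0.0246 to 0.0647 in the other PVP livers, below the 0.278 of control replicate 4. T, NK, B and plasma cell markers lay near 0, at 0.0596 and 0.0718. Their part in the results on inflammation was not tested.

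All 12 markers of stellate cells, which store vitamin A and make matrix, were below 0 at a median of -0.247 against a matched -0.131. Their summed level ran from 12.6 to 13.4 in controls and from 11.9 to 13.1 with PVP (exact permutation test, two-sided p = 0.229). Reln, a defining marker of these cells, had 8.79, 8.73, 9.06 and 9.11 in controls and 7.87, 8.27, 8.20 and 8.04 with PVP, with no overlap (-0.83, SE 0.16, adjusted p = 0.071). Lrat, which esterifies vitamin A, ran from 8.02 to 9.16 in controls and from 6.52 to 8.54 with PVP, which overlap. Prelp, a proteoglycan of matrix, had 9.70, 9.86, 9.92 and 10.94 in controls and 8.60, 9.46, 8.85 and 9.01 with PVP (-1.12, SE 0.25, adjusted p = 0.0967). Sinusoidal endothelial markers were below 0 in 11 of 14, at a median of -0.272 against a matched -0.159. Of protein-coding genes in bins 7 and 8 of signal, 79.9% and 83.5% were below 0. The summed level of these markers ran from 12.4 to 12.9 in controls and from 12 to 12.9 with PVP (exact permutation test, two-sided p = 0.314).

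Metal-binding proteins did not separate the groups when the sexes were pooled. Mt2 had 7.56 and 11.20 in the control males, 17.86 and 17.90 in the control females and 18.70, 18.78, 13.13 and 17.89 with PVP. Mt1 had 8.86 and 12.60 in the control males, 16.98 and 16.88 in the control females and 17.34, 17.35, 13.52 and 17.05 with PVP. Within each sex, with 2 mice per group, both PVP livers lay above both control livers in both genes. The 2 control males were the lowest livers in both genes, and the differences of 3.49 and 2.49 did not pass (SE 1.42 and 1.17, adjusted p of 0.211 and 0.262). The list of 4 tested members had medians of 0.195 in females and 2.26 in males. For the sex difference 2 of these members had an unadjusted p under 0.05 (limma). Mt3 and the metal sensor Mtf1 had -0.14 and -0.15. Of the zinc and copper transporters, Atp7b, the copper exporter of hepatocytes, had -0.36 with no overlap (adjusted p = 0.165). Hmox1, which breaks down heme, had 0.68 (adjusted p = 0.205).

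The sexes were compared in their PVP difference from 2 mice per mean. Of 19985 genes 0 passed an adjusted p of 0.05 (limma), 0% of those tested, and 723 had an unadjusted p under 0.05, which is 3.62%. The genes of smallest p are given as values. Serpina3n, an acute phase protease inhibitor, had 18.76 and 19.86 in the PVP females and 16.29 and 15.95 in the PVP males, against 15.79 to 16.41 in controls. Prg4, the lubricant proteoglycan lubricin, had 15.10 and 16.28 in the PVP females and 11.39 and 12.14 in the PVP males, against 12.07 to 12.37 in controls. In both genes the PVP females were above every other liver of the 8. Bcl6, a repressor that sets sex-dependent gene expression in liver, had 9.22 and 8.88 in the PVP males against 6.17 and 7.02 in the control males, and 7.84 and 7.29 in the PVP females against 8.71 and 7.80 in the control females. The difference was therefore 2.46 in males and -0.69 in females, and the test between them gave an adjusted p of 0.994. Pla2g15, a lysosomal phospholipase, had 0.70 in females and -0.61 in males (adjusted p = 0.994). Pim1, a kinase induced by cytokines, had 0.44 and -0.99, and Arrdc4, an arrestin relative, -0.73 and 0.17, with adjusted p-values of 0.994 as well. The pseudogenes Ang-ps1 and Ang-ps2 had 1.59 and 1.14 in females and 0.09 and 0.07 in males.

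By list, the serum amyloid group had medians of 1.07 in females and 0.223 in males, and 10 of its 24 members had an unadjusted p under 0.05 for the sex difference. Chaperones of the endoplasmic reticulum had 0.126 in females and -0.449 in males, with 2 of 20 such members. Glucocorticoid targets had -0.354 and 0.444, with 4 of 17. Circadian clock genes had -0.222 and 0.04, with 5 of 19, and a pooled median of -0.0357, which was 0.02 without PVP replicates 1 and 4. In the HSP90 list the medians were -0.554 and -0.393, and 0 of its 12 members had such a p.

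**Figure D5:**
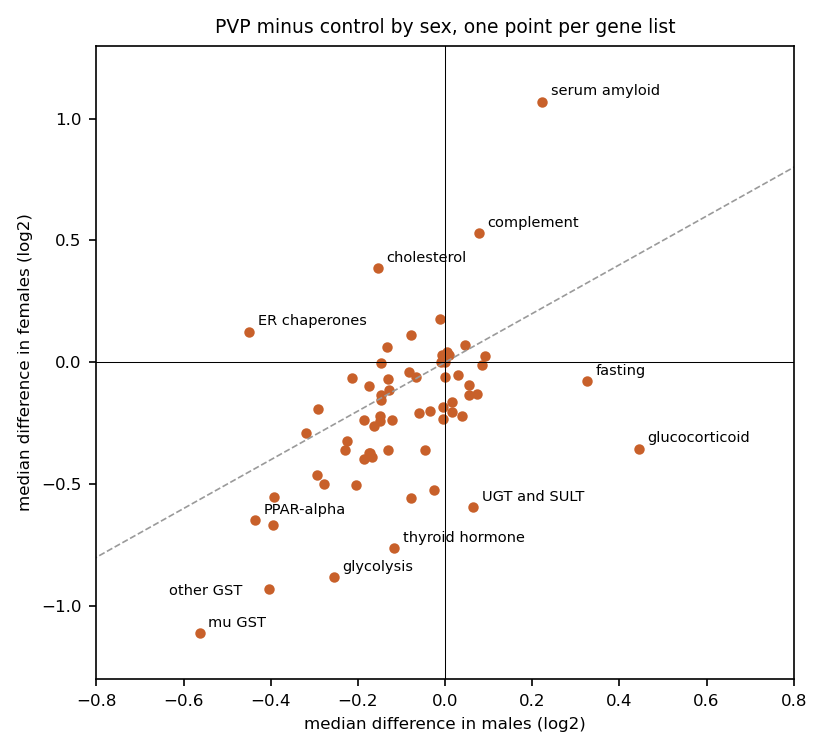
The median difference between PVP and control livers (log2) in females against that in males, 1 point for each gene list of 7 or more tested members, with the dashed line marking equal values. The serum amyloid list lies above the line at 1.07 and 0.223, and the mu glutathione transferases lie lowest at -1.11 and -0.562.

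Lists of the cell cycle, DNA repair, p53 targets and apoptosis had medians from -0.0836 to 0.034. Cell cycle genes had a median of 0.034, equal to the matched value, and Mki67, a marker of dividing cells, ran from 4.53 to 5.20 in controls and from 5.17 to 5.60 with PVP (0.41, adjusted p = 0.186). Base excision repair had -0.0173 with 8 of 16 members above 0, and repair of double-strand breaks and mismatches had -0.0836, and -0.02 without PVP replicates 1 and 4. Targets of p53 had -0.00378. Apoptosis genes had 0.00778, with Ripk3, a kinase of necroptosis, higher in all PVP livers at 0.26 (adjusted p = 0.109). Bile acid synthesis had -0.134 against a matched -0.233, and -0.01 without PVP replicates 1 and 4. Abcb11, the bile salt export pump, had -0.88 with no overlap (adjusted p = 0.128). The urea cycle and amino acid list had -0.188 against a matched -0.233, and -0.32 without PVP replicates 1 and 4, with Otc at -0.84 (adjusted p = 0.138). In none of these lists did a member have an adjusted p under 0.1.

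Set against citrate-coated particles, PVP livers gave 0 genes at an adjusted p under 0.05 (limma), 0%, and 2800 at an unadjusted p under 0.05, 14%. Both comparisons use the same 4 PVP arrays, so values are given side by side. Hsp90aa1 differed by -1.21 from control and -1.19 from citrate, and Ahsa1 by -0.61 and -0.66. Stip1 differed by -1.39 and -1.12, and Hsph1 by -1.41 and -0.82. Of the 12 members of the HSP90 list 7 had an unadjusted p under 0.05 against citrate. The mu transferases had a median of -0.807 against control and -0.568 against citrate, and the PPAR-alpha targets -0.551 and -0.304. Plin2 and Irak2, like Grb7 and Camsap3, had small differences from citrate, at -0.21 and 0.14. Saa2 stood 5.29 above citrate.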

How the data were processed

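Whole-liver RNA of 12 mice was measured on 1-colour arrays, 1 mouse per array. The authors deposited a table of log2 signals for 72688 probe sets, and the submitters' processing notes name RMA and Transcriptome Analysis Console 4.0.1.36 without their roles. The genome build behind the signals is not given in the sources used here. The deposited log2 values ran from 1.73 to 19.93, arrays had medians of 4.13 to 4.4, and precision is limited by how many arrays there are. Of the probe sets 30604 had 1 gene symbol, 2146 several and 39938 none. After 1135 symbols were updated through the RefSeq table of GRCm38.p6, which also gave gene types, promoters and miRNAs, the probe set of highest mean over 12 arrays stood for each of 30063 genes, a choice that mattered for 429. Genes above the 40th percentile of mean signal (3.93) entered a linear model of limma 3.58.1 (R 4.3.3) with terms for group and sex over all 12 arrays, a trended prior and Benjamini-Hochberg adjustment. Single values of arrays and marker sums were compared by exact permutation over mice. The procedure was tested on simulated data.

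Members and gene lists were chosen with earlier results of these data known. The genes named were every gene past 0.05; the 12 largest differences in each direction at an adjusted p under 0.1 among known genes with groups that did not overlap and the same sign in both sexes; up to 4 members of smallest p per list; the 8 known genes of smallest p for the sex difference; and the defining cell markers. Other genes named, such as Gstm1, Gstm5, Fkbp5, Dnajb1, Hspa4, Lcn2, Reln, Fasn, the Camsap, Grb and Anp32 relatives, the other tubulins, Snord49b, Snord55, Mir5123 and Mir292b, were added after their values were seen. Alternatives covered the samples and terms of the fit, moderation, array weights, normalization, filters, probe sets, a replicate block and leaving out each array, and the exon control covariate was chosen after seeing the data. Replicate numbers 1 to 4 were not used as pairs in the main fit, since PVP and control mice numbered 1 and 4 differed in sex. Whether same-numbered mice shared other handling is not known from the labels.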

Additional observations from a re-analysis of the deposited data

Results flagged for a closer look

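Among 92 groups of 4 values checked for a single distant sample, 5 had a gap over range above Dixon's critical value at 95%, and chance gives about 1 in 20 groups. All 5 were in control livers. Anp32-ps stood at 12.36 in control replicate 2, against 12.74 to 12.75 in the other controls and at most 11.66 in the PVP livers. Ehhadh, the peroxisomal enzyme, stood at 16.13 in control replicate 4, against 15.45 to 15.52. Prg4, the lubricin gene, stood at 12.07 in control replicate 1, against 12.32 to 12.37. Bud13, the splicing factor, stood at 5.392 in control replicate 1, against 5.636 to 5.673, and the odorant receptor Olfr701 at 4.448 in the same liver, against 4.22 to 4.239.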

How the results depend on the processing

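The count of genes at an adjusted p under 0.05 (limma, 8) was 0 with PVP and control arrays only, with 6 means of group by sex, without PVP replicates 1 and 4 and after quantile normalization, where 2905, 3618, 1938 and 4057 genes had an unadjusted p under 0.05. It was 2 with no sex term (Anp32-ps and Gm20300), 2 with exon over intron area as a covariate (Snord16a and Slc13a2), 3 with robust moderation, 4 with no filter, 5 with the mean of all probe sets, 1 with the exon control covariate, 37 with array weights, 52 with no trend, 85 with a stricter filter and 89 with protein-coding genes only. Leaving out 1 array gave 1 to 61. The cause of these shifts was not tested.

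The count at an adjusted p under 0.1 (272) was 0 with PVP and control arrays only and without that pair of arrays, 1 with the exon control covariate, 18 with the area covariate, 29 with 6 means, 44 with no sex term, 58 with no filter, 490 with protein-coding genes only, 520 with a stricter filter and 530 with array weights. Leaving out 1 array gave 1 to 1624, and the extremes were control replicate 2 (1624), PVP replicate 3 (1087) and PVP replicate 4 (1). The lower share of calls at an unadjusted p under 0.05 (60.3%) was 50.1% with no filter, 71.9% with a stricter one and 74.6% with protein-coding genes only. With the replicate block both counts were 0, with 3459 genes at an unadjusted p under 0.05. Deviations of same-numbered PVP and control mice from their group means correlated at -0.348, 0.00928, 0.368 and -0.515. Sex was left in these deviations, and the mice numbered 1 and 4 differed in sex. The correlations therefore cannot tell whether the numbers pair the samples. The sex difference gave 0 to 3 genes when 1 array was left out, and PVP against citrate gave 1 after quantile normalization. The complement median ran from -0.04 (PVP replicate 2 left out) to 0.46 (PVP replicate 1 left out). Among named genes 136 values lost the threshold, 57 gained it and 636 kept their side, with none turned in direction. Of the list medians 838 moved by less than the spread between PVP livers, 32 by more and 1, that of complement, reversed by that measure. At 2 decimals 10 of 67 list medians turned from below to above 0 without PVP replicates 1 and 4.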
